A study of Mus musculus with 24 samples.

Results

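The genes described here carry the symbols of proteins of the cytosolic ribosome. They were chosen by name, as mouse gene symbols formed from Rpl, Rps or Rplp and a number, with the pseudogene symbols (-ps) left out, and by reaching a value of 1 in 3 or more libraries. Of 80 symbols with this form, 79 passed, 48 of the large and 31 of the small subunit, among 18637 genes kept of 43629 in the table. The gene that did not pass was Rpl10l, which had no read in the 24 libraries. Just inside the limit stood Rpl3l, with a mean value of 0.54 and 16 libraries without a read. Rps4l (mean value 23.4) passed by its symbol and is counted with the small subunit. GENCODE annotates it as a transcribed processed pseudogene. Libraries were RNA sequencing of bone marrow-derived macrophages (BMDMs), macrophages grown from marrow in culture, of C57BL/6 mice labelled as 10 weeks old. There were 8 groups of 3 libraries: wild-type (WT) control, WT LPS, WT IFNg and WT IL4, and CITED2 knockout (KO) control, KO LPS, KO IFNg and KO IL4. LPS is a bacterial wall component that activates macrophages through Toll-like receptors, IFNg an activating cytokine and IL4 a cytokine of alternative activation. CITED2 is a transcriptional coregulator that binds CBP and p300. The labels do not say how Cited2 was deleted, at which doses or for how long cells were treated, or where the replicates of a group differ in origin. The p-values therefore weigh differences against the spread among these libraries, which may be technical.

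Each cytosolic ribosome joins a small subunit, which reads the mRNA, to a large subunit, which forms the peptide bond, and most of their proteins are present in 1 copy. Their mRNAs begin with a short run of pyrimidines, the TOP motif, through which the kinase mTOR and the protein LARP1 control how much of them is translated. Their transcription is high in growing cells and is often described as coordinated, and MYC raises the production of ribosomes.

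Recovered reads per library ranged from 1478507 in KO LPS replicate 1 to 73409343, and 1 read was worth a value of 23.6 in that library and of 0.355 to 4.08 in the other 23. Cited2 had values of 1117 to 4174 in the WT and 8.52 to 94.5 in the KO libraries. The 7 macrophage markers of the list that were measured, such as Csf1r and Cd68, summed to 99016 to 134651 per library. Among markers of other cells, the neutrophil list summed to 269 to 2575 per library, the fibroblast list to 233 to 506 and the T and NK cell list to 21.5 to 70.9. Dendritic cell markers summed to 0 to 152, B cell markers to 6.33 to 27.2, mast cell markers to 0 to 13.5 and erythroid markers to 0 to 3.4. Values are deposited values throughout, reads scaled by 1 factor per library, and differences are on the log2 scale of the value plus 1. A gene was called raised or lowered at a limma adjusted p below 0.05, adjusted over all 18637 genes. The percent of all genes called is given with the counts made on the deposited scaling with all libraries. For counts under other settings it is given only where stated. Elsewhere such counts cannot be set against all genes.

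The sequences around the annotated starts of 5 of these genes show pyrimidine runs of different lengths, from 7 bases in Rpl10a to 11 in Rpl4. Each is 30 bases on the plus strand of GRCm38.p6 (RefSeq), base 16 is the annotated start, and capitals mark runs of 5 or more pyrimidines. They belong to Rpl4 (chr9:64173372-64173401), Rps9 (chr7:3704026-3704055), Rps24 (chr14:24490663-24490692), Rpl18 (chr7:45718056-45718085) and Rpl10a (chr17:28328456-28328485), genes named again below. Rps24 and Rpl10a each have a second annotated start, whose window holds no such run and is not shown.
Rpl4: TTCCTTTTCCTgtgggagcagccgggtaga
Rps9: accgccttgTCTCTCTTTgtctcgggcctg
Rps24: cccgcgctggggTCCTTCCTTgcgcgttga
Rpl18: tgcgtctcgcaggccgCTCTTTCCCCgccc
Rpl10a: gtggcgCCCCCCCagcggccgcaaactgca
RefSeq start windows were found for 58 of the 79 genes. A run of at least 8 pyrimidines on the sense strand within 25 bases of the start was present in 32 of these 58 (55.2%), against 22.3% of 27025 genes. The letters CTCTTTC on the sense strand, which can lie inside such a run, were in the 300-base window of 13 (22.4%), against 4.60% of all genes. CCGGAAGT, a form of the ETS motif, was on either strand in 11 (19.0%), against 4.31%.

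Levels differed between the genes by orders of magnitude. The highest mean value per kilobase of exon was that of Rpl4 (8757), and the lowest those of Rpl3l (0.393), Rps27 (4.87) and Rps16 (10.5). The median gene had a mean value of 508, while 25 genes were above 1000, 23 were below 100 and 10 had at least 1 library without a read. Ribosomal protein genes have many processed pseudogenes, and a read from such a copy may fit several places. In 43 genes fewer than 50% of the transcript's 50-base words were unique in the annotation, and these had a median of 294 per kilobase, against 1056 in the other 36. The order of levels between genes therefore need not be the order of their mRNAs, and the tests below compare the same gene between groups.

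Rps27, at chr3:90212522-90213651 (GRCm38, minus strand), shows this most plainly. Its first 60 coding bases are the same as those of Rps27rt, a gene of chromosome 9 (chr9:114982366-114982739, minus strand), as are all 252 coding bases, while the paralog Rps27l (chr9:66946086-66949516) differs. Capitals mark bases that differ from Rps27.
Rps27: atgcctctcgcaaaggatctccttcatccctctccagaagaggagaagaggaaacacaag
Rps27rt: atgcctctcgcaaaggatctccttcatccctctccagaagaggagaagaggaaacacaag
Rps27l: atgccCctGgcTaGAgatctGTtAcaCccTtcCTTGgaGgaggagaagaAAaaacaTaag
Rps27l differed at 18 of these 60 bases and at 60 of the 252 (76.2% identity). The mean value was 1.68 for Rps27, 63.3 for Rps27rt and 570 for Rps27l, and which copy the Rps27 reads came from cannot be told apart. Identity was higher between Rpl39l and Rpl39, 85.0% of 153 coding bases.

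Summed over the 79 genes, the 2 ways of scaling a library gave opposite orders for LPS. As a share of reads the family took 0.522% ± 0.0192 (SD, n = 3) in WT control and 0.342% ± 0.0198 in WT LPS, 0.345% ± 0.0211 in WT IFNg and 0.502% ± 0.00818 in WT IL4. The KO groups had 0.536% ± 0.0227 in control, 0.326% ± 0.0175 in LPS, 0.373% ± 0.0106 in IFNg and 0.440% ± 0.0279 in IL4. In deposited values the sums were 99736 ± 3413 in WT control and 110883 ± 4100 in WT LPS, and 106812 ± 4504 in KO control and 118557 ± 3920 in KO LPS. The LPS libraries thus lay below control by share and above it by value, without overlap in either genotype or scale. The KO IL4 libraries lay below KO control on both scales, at 90415 ± 4606 by value, while WT IL4 had 97013 ± 1423. For IFNg the summed value was 89525 ± 4166 in WT and 101157 ± 2343 in KO. These sums carry no test. In bulk samples fewer cells of a type and less RNA per cell cannot be told apart. The large subunit took 0.295% of reads in WT control, 0.305% in KO control and 0.250% in KO IL4, and the small subunit 0.227%, 0.231% and 0.190%.

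**Figure D1:**
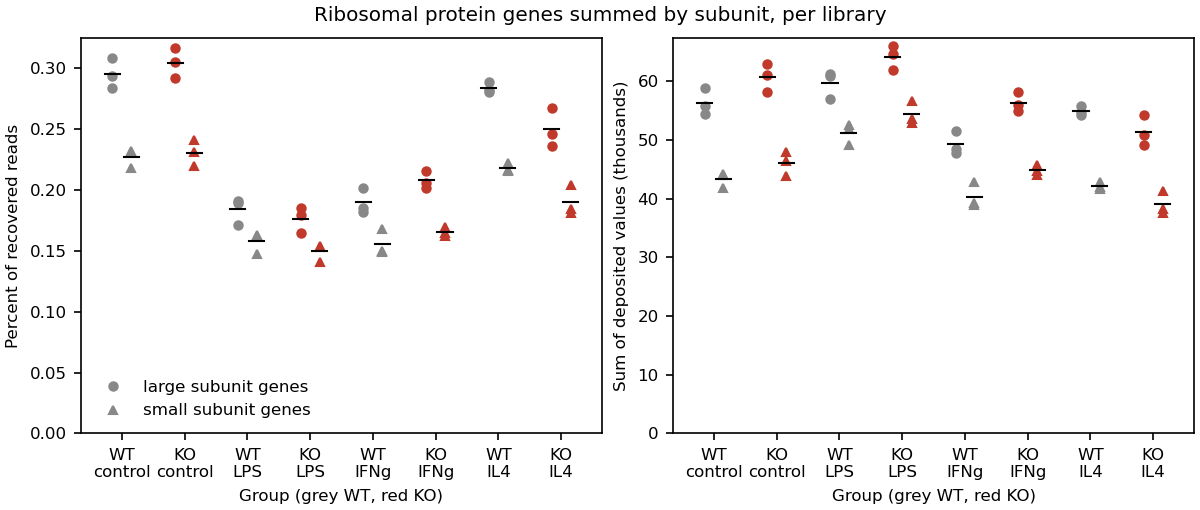
Summed ribosomal protein genes per library by group, as a percent of reads and as summed deposited values, for the large and the small subunit; points are libraries and bars the group means. In LPS both subunits sit below control as a share of reads, and their group means lie above it as summed values. Summed values of the large subunit overlap between LPS and control libraries in both genotypes, and those of the small subunit do not. In KO IL4 both subunits sit below KO control on both axes.

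KO and WT differed in few of these genes, and Rpl29 differed most. Rpl29 (chr9:106429454-106431568, plus strand) encodes a large subunit protein also described as a heparin-binding protein of the cell surface. Its values were 3.77, 9.03 and 4.88 in WT control and 78.4, 80.5 and 60.5 in KO control. They were 8.15, 9.50 and 7.14 in WT LPS and 70.9, 89.2 and 113 in KO LPS. In IFNg they were 5.38, 6.84 and 6.75 against 66.1, 61.4 and 60.2, and in IL4 4.61, 5.15 and 2.83 against 30.7, 59.2 and 65.0. Every KO library was above every WT library in each treatment. The ratio of means was 12.4 in control, 11 in LPS, 9.89 in IFNg and 12.3 in IL4, with log2 differences of 3.49, 3.29, 3.12 and 3.30 (SE 0.36 each; adjusted p of 2.2e-07, 2.4e-07, 1e-06 and 2.7e-07 with limma). These genotype calls held under 6 scalings of the libraries and without each library of the groups compared. The scalings were the deposited one, total reads, TMM, the upper quartile, the median gene, and factors computed without the ribosomal protein genes. The median gene here means each library's median log2 value over all kept genes. Factors computed without the ribosomal protein genes hardly differ from the deposited ones, shifting comparisons by -0.004 to 0.002 on the log2 scale. That scaling is therefore hardly a separate check. Counts were low: 2 to 19 reads in the WT libraries and 3 to 145 in the KO libraries.

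Rpl29 shares 50-base words with 84 other genes, 81 of them pseudogenes. The 49 of these pseudogenes that stood in the table summed to 77.5 in WT control and 73.4 in KO control, 107 and 132 in LPS, 179 and 195 in IFNg, and 78.7 and 96.4 in IL4. These sums were higher in KO in 3 of the 4 treatments, and how far reads are shared between Rpl29 and its copies was not tested. Of 18 kept genes within 250000 bases of Rpl29, 2 were called in control, 5 in LPS, 7 in IFNg and 2 in IL4. Among all genes 4.11% were raised and 3.05% lowered in control, and 9.7% and 12.5% in LPS. The shares were 4.83% and 4.21% in IFNg and 6.14% and 3.14% in IL4. Alas1 and Parp3, named after their values were seen, were called in each of the 4 treatments, Alas1 with log2 differences of 0.99, 1.90, 0.90 and 1.27 and Parp3 with -0.38, -0.63, -0.50 and -0.47. Whether these differences have a common source was not tested.

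**Figure D2:**
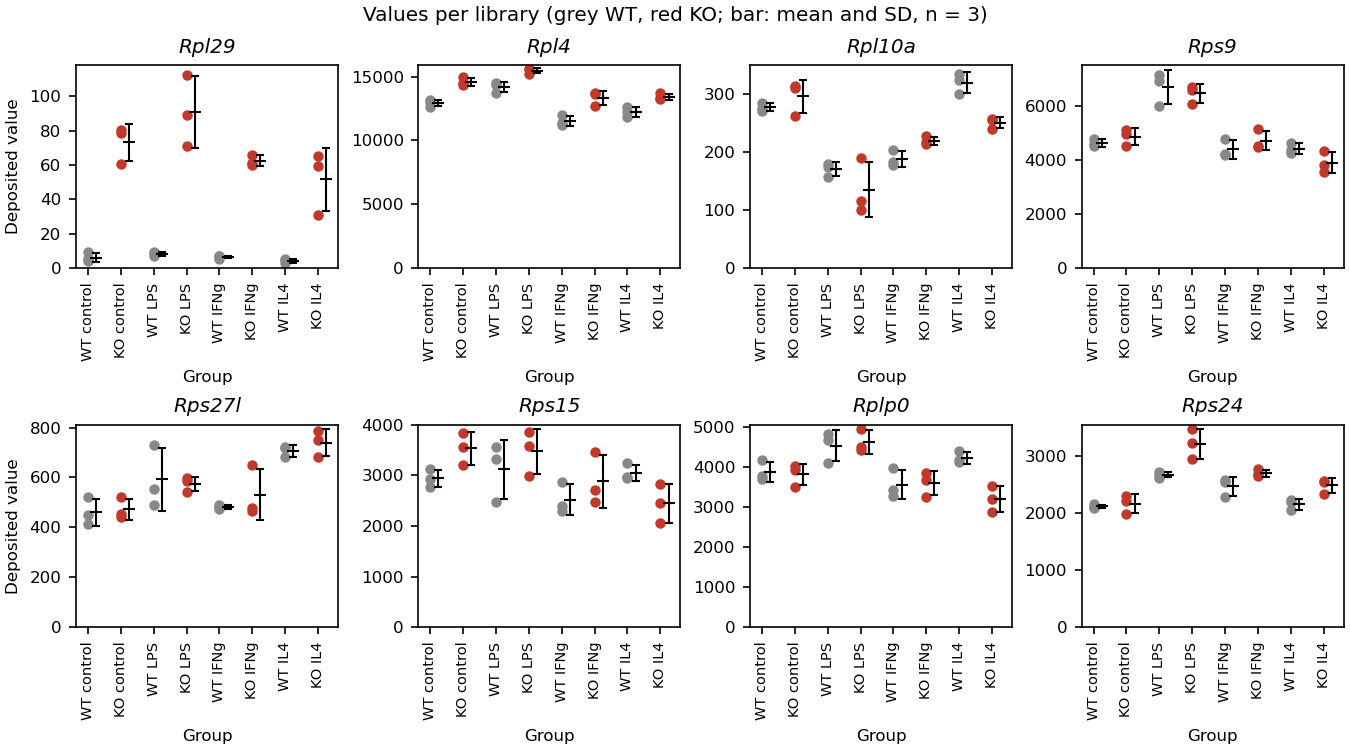
Deposited values per library of 8 genes in the 8 groups (grey WT, red KO; bar and line, mean and SD, n = 3). Rpl29 is at most 9.50 in any WT library and at least 30.7 in any KO library.

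Rpl4 (chr9:64173375-64178666), a large subunit protein lining the exit tunnel, had the highest values of the family in this table, with the limit on levels given above, and was higher in KO by a small amount. Its values were 12658, 13011 and 13148 in WT control and 14492, 14979 and 14366 in KO control. In IFNg they were 11224, 11330 and 11986 in WT and 13620, 12726 and 13703 in KO. KO lay above WT without overlap in all 4 treatments, by 0.18 (SE 0.04, limma adjusted p = 0.0089) in control, 0.13 in LPS, 0.21 (adjusted p = 0.0012) in IFNg and 0.13 in IL4. The IFNg call held under all 6 scalings, but centring on the family's own median left 0.08 and no call. The control call was lost without WT control replicate 1 or KO control replicate 2 (0.16 in both cases), by total reads (0.11) and when centred on the family's own median (0.08). The LPS call was lost by total reads (-0.04), by TMM (0.12), when centred on the family's own median (0.10), with edgeR (0.13) and with GC subtracted (0.11). The LPS call was lost without KO LPS replicate 1 (0.14), 2 (0.12) or 3 (0.12) or WT LPS replicate 2 (0.13) or 3 (0.10), and the IL4 call without each of its libraries but WT IL4 replicate 2, with values of 0.11 to 0.14. The IL4 call was also lost under each of the 5 other scalings, with values from 0.05 by total reads to 0.18 by median centring, with edgeR (0.14), with the replicate block (0.13) and with GC subtracted (0.07).

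In control cells 2 genes were raised in KO, Rpl29 and Rpl4, and none was lowered, against 4.11% and 3.05% of all genes raised and lowered. The median of the 79 differences was 0.08, beside 0 for all genes. Without KO control replicate 3, 1 gene was lowered. In LPS 4 were raised and 1 lowered (all genes 9.7% and 12.5%), with a median of 0.07 beside -0.06. Beside Rpl29 and Rpl4 these were Rps24, a small subunit protein needed for pre-rRNA processing (0.26, SE 0.06, limma adjusted p = 0.0036), and Rpl26 (0.39, adjusted p = 0.013). Rps24 values were 2670, 2622 and 2715 in WT LPS and 3473, 3219 and 2946 in KO LPS, with a difference of 0.10 and no call when libraries were scaled by total reads. Rpl26 lost its call by total reads (0.23) and without WT LPS replicate 1 (0.25) or KO LPS replicate 3 (0.32). Rpl12, of the stalk base, was lowered by 0.89 (adjusted p = 0.037), but KO LPS replicate 1 held a single read of it, and without that library the difference was -0.27 and not called. The call was also lost with edgeR (-0.26), DESeq2 (-0.29) and median centring (-0.82), and without WT LPS replicate 1 (-0.87), 2 (-0.91) or 3 (-0.89), which left 0 lowered, while 5 and 7 genes were lowered without KO LPS replicates 2 and 3. Without KO LPS replicate 2, 7 were raised.

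In IFNg 8 genes were raised in KO and none lowered (all genes 4.83% and 4.21%), with a median of 0.16 beside -0.03 for all genes. Scaled by total reads 2 were raised, Rpl29 and Rpl4. The GTPase stalk protein Rplp2 had values of 823, 548 and 622 in WT and 1074, 998 and 855 in KO (0.57, SE 0.16, limma adjusted p = 0.019). Its call was lost without WT IFNg replicate 2 (0.44) or 3 (0.53) or KO IFNg replicate 1 (0.50) or 2 (0.55). Rpl22, a large subunit protein with a paralog that it restrains, rose by 0.21 (SE 0.05, adjusted p = 0.0054), from 2677, 2631 and 2561 to 2899, 3160 and 3041, and kept its call without each library. Rps3, a small subunit protein at the mRNA entry, was higher by 0.17, and was lost without WT IFNg replicate 2 (0.15) or 3 (0.16) or KO IFNg replicate 2 (0.15). Rpl13a, released from ribosomes in IFNg-treated monocytes as part of a translational silencing complex, was higher by 0.29 and was lost without WT IFNg replicate 2 (0.28) or 3 (0.27) or KO IFNg replicate 1 (0.19). Rpl30, higher by 0.43, was lost without WT IFNg replicate 1 (0.47), 2 (0.42) or 3 (0.40) or KO IFNg replicate 2 (0.23) or 3 (0.47). The count was 3 without WT IFNg replicate 2 or 3, and 4 without KO IFNg replicate 2.

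In IL4 the family lay mostly lower in KO, with a median of -0.12 beside 0, but 4 genes were raised and 1 was lowered (all genes 6.14% and 3.14%). The lowered gene was the stalk scaffold Rplp0 (chr5:115559467-115563727). Its values were 4404, 4131 and 4186 in WT IL4 and 2894, 3527 and 3208 in KO IL4 (-0.41, SE 0.08, limma adjusted p = 0.0016), and the call held under all 6 scalings and without each library. The raised genes were Rpl29, Rpl4, Rps24 (0.20) and Rpl7 (0.23). Scaled by total reads, Rps24 had 0.11 and Rpl7 0.14 without a call, and Rps24 had 0.18 without a call by the upper quartile. With GC subtracted both lost their calls. Of 21 alternatives, Rps24 lost its call in 11 and Rpl7 in 5. Rps24 was lost without WT IL4 replicate 1 (0.17), 2 (0.22) or 3 (0.23) or KO IL4 replicate 1 (0.18) or 3 (0.18), and Rpl7 without WT IL4 replicate 1 (0.22) or 3 (0.22) or KO IL4 replicate 1 (0.19). The raised count was 1 without WT IL4 replicate 1 or 3 or KO IL4 replicate 1, and 11 were lowered without KO IL4 replicate 2. By total reads 8 were lowered, with edgeR 10 and with DESeq2 7, without a share of all genes to set beside them.

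LPS raised some of these genes and lowered others in both genotypes, and the direction of most of the family turned with the scaling, as given after the single genes. The comparisons of LPS, IFNg and IL4 within a genotype share their control libraries. In WT, 17 genes were raised and 5 lowered, beside 25.5% and 27.8% of all genes, with a median of 0.13 beside -0.06. The small subunit had 10 raised and 0 lowered, the large subunit 7 and 5. In KO, 18 were raised and 4 lowered, beside 24.5% and 32.5%, with a median of 0.11 beside -0.21, of which the large subunit had 11 and 3 and the small subunit 7 and 1. The calls that held without each library included Rpl4, Rps24, Rps3 and Rps9 raised and Rpl10a and Rpl5 lowered in WT, and 10 raised (among them Rps24, Rps9, Rps20, Rplp0, Rpl26, Rpl27, Rpl34, Rpl35a and Rpl39l) with Rpl10a and Rpl12 lowered in KO. The lowered count in WT was 2 without WT LPS replicate 1 and 3 without any other library of WT control or WT LPS, and in KO 2 without KO control replicate 1 but 8 without KO LPS replicate 2 and 7 without KO LPS replicate 3.

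Rps9 (chr7:3703993-3706897), a small subunit protein of the body, rose in both genotypes on the deposited scale and fell when libraries were scaled by total reads. It went from 4531, 4602 and 4807 to 7187, 6962 and 6024 in WT (0.53, SE 0.08, limma adjusted p = 2.4e-06) and from 4984, 5117 and 4542 to 6733, 6101 and 6617 in KO (0.41, adjusted p = 6.7e-05). LPS libraries were above control without overlap. Scaled by total reads, Rps9 was lowered by 0.24 in WT and 0.46 in KO. Rps24 rose by 0.34 in WT and 0.57 in KO on the deposited scale and fell by 0.43 and 0.30 by total reads, and its interaction was 0.24 (adjusted p = 0.12).

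Rpl10a (chr17:28328471-28331033), a large subunit protein of the L1 stalk that is not present on all ribosomes, was lowered in both genotypes. It fell from 285, 272 and 276 to 179, 175 and 157 in WT (-0.70, SE 0.15, limma adjusted p = 0.00032) and from 311, 315 and 263 to 189, 116 and 100 in KO (-1.18, adjusted p = 2.8e-07). In KO this held under all 6 scalings and without each library, while in WT median centring left -0.28 and no call. KO LPS replicate 1 held 8 reads of it. In IFNg it fell by 0.56 in WT and 0.43 in KO on the deposited scale, and median centring ended both calls (-0.24 and -0.10). The KO call was also lost without KO control replicate 1 (-0.39) or 2 (-0.38) or KO IFNg replicate 2 (-0.41) or 3 (-0.42). Rpl5, which with Rpl11 and 5S rRNA restrains MDM2, fell by 0.48 with LPS in WT, and had -0.06 without a call under median centring. Rpl11 was not called in any comparison.

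Other genes named by size were low or rested on single libraries. Rps6, the small subunit protein phosphorylated by S6 kinase, had 1 to 37 reads per library and an LPS difference of 1.54 in WT, and of 1.09 without a call when WT control replicate 3 was left out. In KO the Rps6 difference of 1.21 was lost without KO control replicate 1 (1.19) or 2 (0.91) or KO LPS replicate 1 (1.00) or 3 (1.26). Rpl27 went from 31.8, 26.4 and 24.4 to 48.9, 45.6 and 42.8 in WT (0.72, lost without WT control replicate 3, 0.64) and from 27.0, 27.2 and 23.7 to 47.2, 55.4 and 46.3 in KO (0.91). Rps12 had a difference of -1.85 in KO, but KO LPS replicate 1 had no read of it where the other replicates had values of 37.5 and 22.5. On the recovered reads Rps12 had -0.15 with edgeR and -0.20 with DESeq2, without a call. Without that library Rps12 had -0.22 and no call, and it was also lost without KO control replicate 1 (-1.87), 2 (-1.78) or 3 (-1.91). Rpl12 fell by 1.12 in KO LPS, by 0.50 without KO LPS replicate 1 and by 0.53 with edgeR, and median centring left -0.71 without a call.

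The other preset genes called in LPS changed sign with the scaling. Rps3 in WT (0.15) and Rplp0 in KO (0.28) kept their calls without each library, and scaled by total reads they had -0.62 and -0.59. Rplp0 in WT (0.22) was lost without WT control replicate 1 (0.20) or 2 (0.19) or WT LPS replicate 1 (0.18) or 2 (0.20). Rps27a, made as a fusion with ubiquitin, was raised in KO by 0.46, which was lost without KO control replicate 1 (0.46) or 2 (0.32) or KO LPS replicate 1 (0.33) or 2 (0.44). Rps27l was raised in WT by 0.34, which was lost without WT control replicate 2 (0.27) or 3 (0.33) or WT LPS replicate 3 (0.18). By total reads these 3 had -0.54, -0.40 and -0.42.

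IFNg lowered more genes than it raised in WT, 10 against 2 (all genes 22.6% and 22.5%), with a median of -0.08 beside 0. Of the lowered genes 9 belonged to the large subunit. In KO the counts were 6 and 4 (23.7% and 22.3%), with a median of -0.01 beside -0.08. Rpl32 fell from 2182, 1851 and 1668 to 1494, 1364 and 1410 in WT (-0.41, SE 0.10, limma adjusted p = 0.0012), and Rpl13a from 3337, 3309 and 3698 to 2754, 2548 and 2524 (-0.40, adjusted p = 0.0004). Both were below control without overlap and kept their calls without each library, but median centring ended both calls. Rpl22 fell by 0.32 in WT and 0.16 in KO, but by median centring the differences were 0.00 and 0.17, and the KO call was lost without KO IFNg replicate 1 (-0.13). Rps24 rose in both genotypes, by 0.22 (adjusted p = 0.0059) and 0.32 (adjusted p = 0.00015), and scaled by total reads it had -0.22 and -0.12. The raised count in WT was 1 without WT control replicate 3 or any of the IFNg libraries. In KO 7 were raised without KO IFNg replicate 1, and 2 and 3 were lowered without KO control replicate 2 and KO IFNg replicate 3.

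The scaling set the direction of the calls for most of the family in LPS, and for fewer genes in IFNg. Scaling by total reads moved the difference of a gene far above the added 1 by about -0.77 in WT LPS, -0.87 in KO LPS and -0.44 in IFNg of either genotype, and by -0.02 and -0.04 in IL4, and that of low genes by other amounts. With it 0 genes were raised and 52 lowered in WT LPS (all genes 13.3% and 50%), and 1 and 60 in KO LPS (12.3% and 54.2%). In IFNg 0 were raised and 49 lowered in WT (14.1% and 40.5%), and 1 and 44 in KO (13.1% and 41.4%). Centring each library on its median log2 value over all kept genes, low ones included, turned this round. It moved all differences of a comparison by the same amount, such as Rpl12 in WT LPS from -0.21 to 0.21. With it 52 were raised and 0 lowered in WT LPS (36.6% and 16.4%), and 56 and 1 in KO LPS (33.9% and 21.2%). The counts were 26 and 0 in WT IFNg (32.8% and 13.5%) and 32 and 0 in KO IFNg (32.3% and 13.8%). In WT LPS 42 genes were called in opposite directions under different scalings and in KO LPS 44, and in IFNg 16 and 20. Across all 6 scalings no gene kept its call in WT LPS or WT IFNg. In KO, Rpl39l and Rpl10a did in LPS and Rpl39l in IFNg. Summed neutrophil markers were also higher in these groups than in control. They were 2185 to 2567 in WT LPS and 2439 to 2575 in KO LPS. In IFNg they were 1905 to 2016 in WT and 1635 to 1987 in KO. On the deposited scaling, of the 7 markers 3 were raised and 2 lowered in WT LPS, and 4 and 0 in KO LPS. In IFNg 2 were raised and 1 lowered in either genotype, with a list median of -0.11 in WT and 0.39 in KO. Summed dendritic cell markers reached 128 to 152 in WT IFNg and 44.1 to 56.2 in KO IFNg. Of the 2 dendritic cell markers tested, 1 was raised in each. Their part in these results was not tested.

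**Figure D3:**
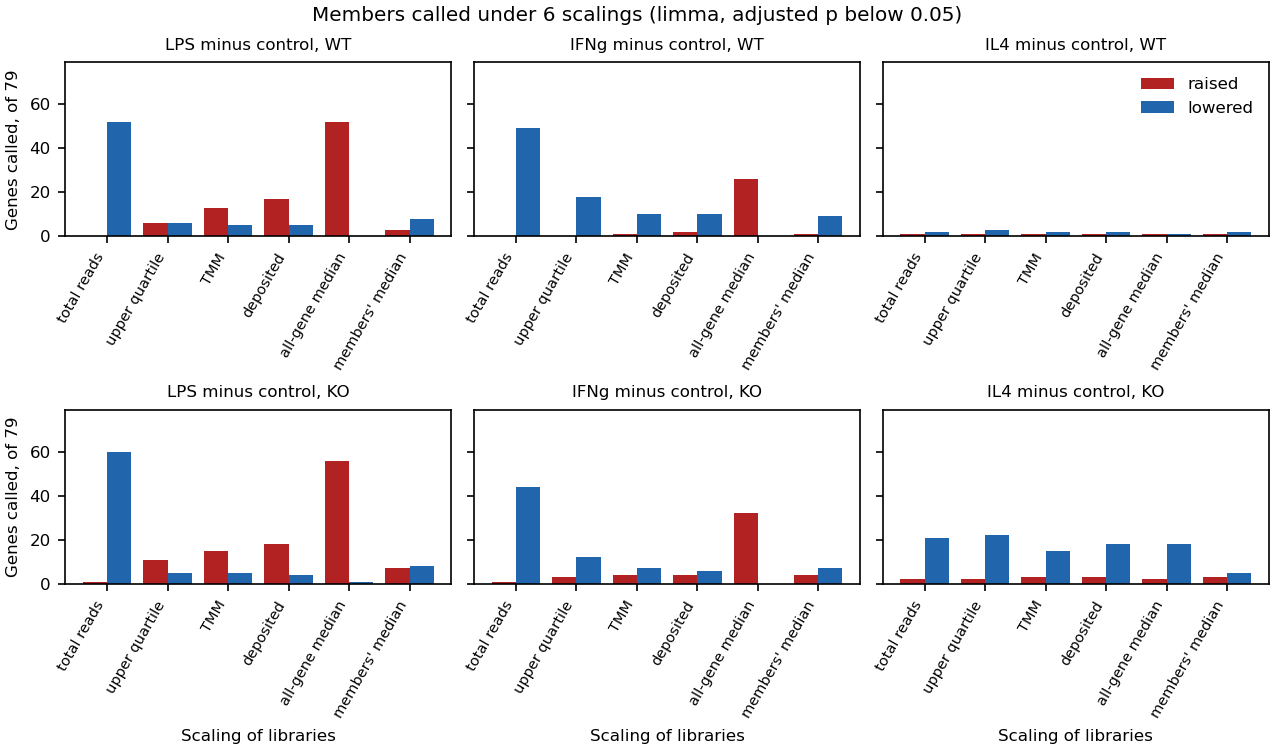
Number of the 79 genes called raised (red) or lowered (blue) with limma under 6 scalings of the libraries (total reads, upper quartile, TMM, deposited, centred on the median gene, and centred on the family's own median), in each treatment against control. In LPS the direction of most calls turns between total reads and median centring (WT LPS 0 raised and 52 lowered against 52 and 0). In IFNg calls also go from mostly lowered to raised, but fewer genes are called in both directions. In KO IL4 lowered calls outnumber raised ones under each of the 6.

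Rpl39l (chr16:10170226-10174911), a paralog of Rpl39 known from male germ cells, was raised by each treatment in KO. Its values were 3.68, 1.05 and 6.14 in KO control, 23.6, 16.0 and 16.3 in KO LPS, 30.5, 18.5 and 12 in KO IFNg and 12.4, 7.81 and 17.0 in KO IL4. The groups did not overlap, with differences of 2.24, 2.29 and 1.65 (SE 0.51; limma adjusted p of 0.00056, 0.00059 and 0.019). WT control had 9.70, 4.51 and 14.7 and WT LPS 12.2, 12 and 11.9, which overlap, and the LPS interaction of 1.82 was not called (adjusted p = 0.14). Reads were 1 to 47 per library, with 1 in KO control replicate 2 and 1 in KO LPS replicate 1, whose value is that of a single read. The IL4 call was lost without KO control replicate 2 (1.16) or KO IL4 replicate 1 (1.62) or 3 (1.41). The parent Rpl39 was raised in KO LPS by 0.60, which was lost without KO control replicate 2 (0.55) or KO LPS replicate 3 (0.56).

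**Figure D4:**
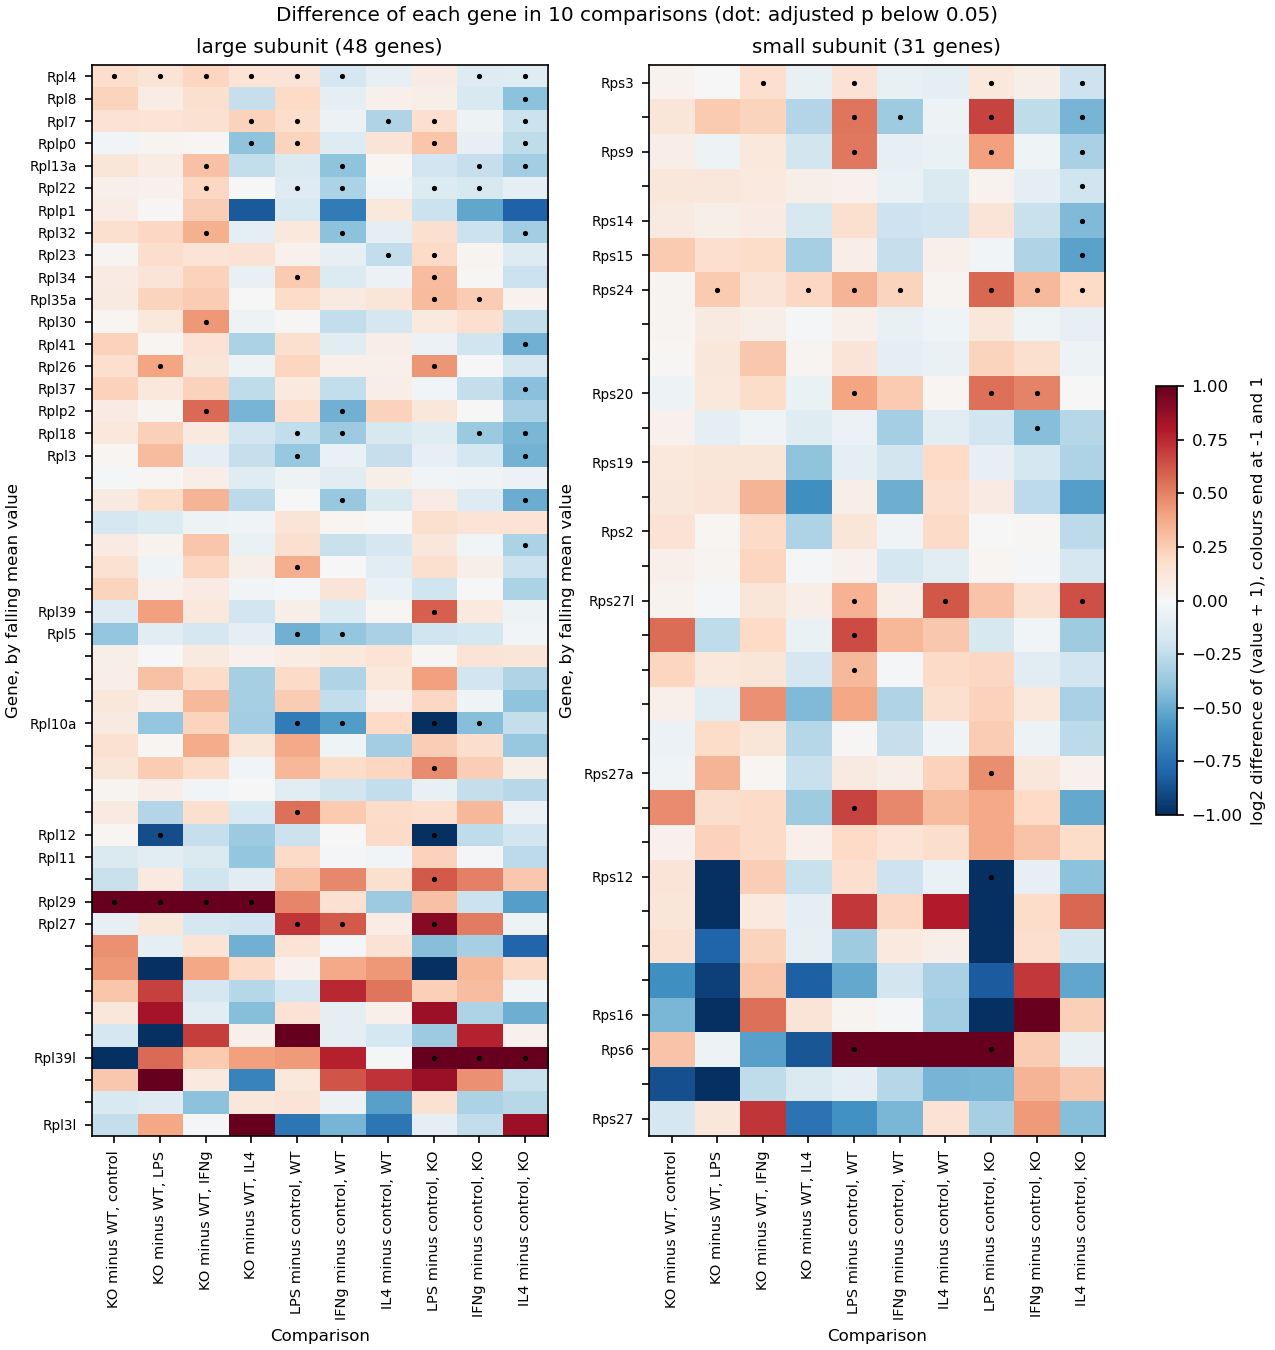
Log2 difference of each gene in 10 comparisons, large and small subunit genes by falling mean value from top to bottom; colours end at -1 and 1, dots mark limma calls, and only some rows carry a name. Rpl29 stands out in the 4 genotype columns, and the KO IL4 column holds 18 lowered calls.

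With IL4, 3 of these genes were called in WT and 21 in KO. In WT 1 was raised and 2 were lowered (all genes 10.6% and 9.56%), with a median of 0.02 beside 0. In KO 3 were raised and 18 lowered (12.6% and 10.5%), with a median of -0.22 beside 0, and 17 of the 79 differences were above 0. The lowered genes were 12 of the large and 6 of the small subunit. The lowered count was 10 without KO control replicate 2 and 11 without KO IL4 replicate 1, and the raised count 1 without KO IL4 replicate 1. With libraries centred on the family's own median, 5 were lowered. Under all 6 scalings 15 of the 18 kept their calls, among them Rpl3, Rpl7, Rpl8, Rpl13a, Rpl18, Rpl32, Rpl37, Rpl41, Rps3, Rps9, Rps14 and Rps15. Without each library 8 did, among them Rpl13a, Rpl18, Rps3, Rps9, Rps14 and Rps15.

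Rps15 (chr10:80292453-80294114), a small subunit head protein, had the largest fall among the genes called. Larger negative differences without a call were found for 4 genes, the largest that of the stalk protein Rplp1 (-0.81, adjusted p = 0.086). Rps15 values were 3561, 3842 and 3196 in KO control and 2057, 2835 and 2449 in KO IL4 (-0.54, SE 0.14, limma adjusted p = 0.004). In WT they were 2780, 2932 and 3119 in control and 2967, 2950 and 3236 in IL4, which overlap. Rps3 fell from 9375, 9842 and 8941 to 8048, 8337 and 8034 (-0.20, SE 0.04, adjusted p = 0.0011) without overlap between the groups. Rplp0 fell from 3927, 4026 and 3516 to 2894, 3527 and 3208 (-0.25), a call lost without KO control replicate 1 (-0.23) or 2 (-0.22) or KO IL4 replicate 1 (-0.18) or 3 (-0.26). Rpl41 (-0.48) and Rpl3 (-0.47) lost theirs without KO control replicate 2 (-0.41 and -0.38) or KO IL4 replicate 1 (-0.31 and -0.39).

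The gene that rose with IL4 in both genotypes was Rps27l, a paralog of Rps27 induced by p53. Its values were 520, 414 and 449 in WT control and 680, 722 and 720 in WT IL4, and 455, 441 and 521 in KO control and 749, 788 and 683 in KO IL4. IL4 libraries were above control without overlap, by 0.62 (SE 0.13, limma adjusted p = 0.00053) and 0.65 (adjusted p = 0.0003), under all 6 scalings and without each library. Rps24 rose in KO IL4 by 0.20, a call lost without KO control replicate 1 (0.14) or KO IL4 replicate 1 (0.18) or 3 (0.18). Rpl7 went against it in WT, from 3761, 4174 and 3940 to 3154, 3291 and 3177 (-0.30, SE 0.06, adjusted p = 0.00054), under all 6 scalings. Rpl23 fell by 0.24 in WT, which was lost without WT control replicate 1 (-0.21) or WT IL4 replicate 1 (-0.21), leaving 1 lowered gene.

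Other values moved with the KO IL4 libraries. The 7 neutrophil markers, each of which had reads in every group, summed to 1149 to 1270 in KO control and 269 to 323 in KO IL4, and to 1265 to 1504 in WT control and 497 to 621 in WT IL4. The 7 macrophage markers summed to 99016 to 109120 in KO control and 124613 to 134651 in KO IL4, and to 102397 to 113410 and 126803 to 127358 in WT. Of these macrophage markers 5 were raised and 0 lowered in KO IL4, and 4 and 2 in WT IL4. Of the neutrophil markers 0 were raised and 4 lowered in KO IL4, and 0 and 5 in WT IL4. Their part in the result was not tested. Base composition of the transcripts moved with it too. Over the 56 genes with a mean of at least 100, transcript GC ranged from 41.3% to 60.3%, and its Spearman correlation with the difference was -0.567 in KO IL4 and -0.618 for KO minus WT in IL4. The points share libraries, so these describe the genes and carry no test. For 9247 genes of the table with a mean of at least 100, the log2 deviation from the gene's own mean over the 24 libraries was taken. Its median in the highest of 20 GC bins exceeded that in the lowest by 0.44, 0.70 and 0.22 in the KO control libraries. In the KO IL4 libraries this difference was -0.33, 0.26 and 0.08. With the GC trend subtracted in each library, 2 genes were raised and 22 lowered in KO IL4, with a median of -0.19, and 19 of the 21 calls kept their direction. The share of all genes called after this correction is not given.

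**Figure D5:**
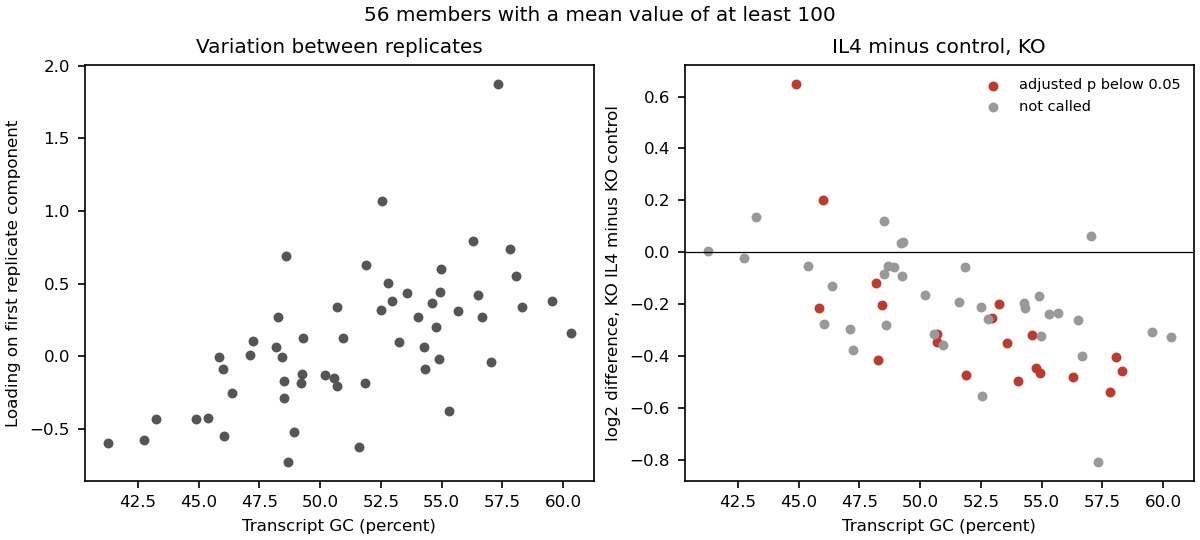
Left, the loading of 56 genes on the first component of variation between replicates against transcript GC in percent; right, the log2 difference of KO IL4 minus KO control against GC, with called genes in colour. The sign of the component is arbitrary and was set so that loadings rise with GC (Spearman 0.630). Genes of higher GC have more negative differences (Spearman -0.567).

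No gene was called in an interaction of genotype with treatment. For LPS 4.29% and 4.5% of all genes were called raised and lowered, for IFNg 1.32% and 1.18%, and for IL4 2.45% and 1.15%. At an unadjusted p under 0.05 there were 5 of the 79 genes in LPS, 5 in IFNg and 17 in IL4, of which 15 were lowered. Of all genes 21.2%, 9.71% and 11.7% had such a p. The smallest limma adjusted p in IL4 was that of Rplp0 (-0.38, SE 0.12, adjusted p = 0.0892), then Rps2 (-0.46) and Rps15 (-0.59, adjusted p = 0.11). The median interaction in IL4 was -0.22, with 15 of 79 above 0. On the recovered reads, edgeR called 12 lowered (2.2% of 18637 genes) and DESeq2 7 (4.29% of the 10688 genes to which it gave an adjusted p), and both sets held Rplp0, Rps15, Rps2, Rpl10a, Rpl13a and Rpl37. The Spearman correlation with transcript GC was -0.730, the largest in size of the comparisons made, and with it subtracted limma called 1 lowered gene and the median was -0.18. Without 1 library, limma called 1 lowered without WT control replicate 3, 2 without KO control replicate 3 and 6 without KO IL4 replicate 2. In LPS 1 was raised without KO LPS replicate 3, and 1 was lowered without WT control replicate 2 and 2 without KO LPS replicate 1 or 2.

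Replicates spread unequally between the genes. For the 56 genes with a mean of at least 100 the SD between replicates was between 0.040 (Rpl4) and 0.479 (Rplp1) on the log2 scale, with a median of 0.158. The stalk protein Rplp1 had values of 2440, 2672 and 4917 in WT control and 3702, 1605 and 2115 in KO IFNg, and was not called in any comparison. The first component of the replicate deviations held 38.6% of their variance, and the genes' loadings on it had a Spearman correlation of 0.630 with transcript GC. The sign of this component is arbitrary and was set so that loadings rise with GC. Rps19, mutated in Diamond-Blackfan anaemia, was also not called in any comparison.

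Other genes of ribosome production were counted by list, on the deposited scaling alone. Of all genes 25.5% were raised and 27.8% lowered in WT LPS, 22.5% and 22.6% in WT IFNg and 10.6% and 9.56% in WT IL4. In KO the shares were 24.5% and 32.5%, 22.3% and 23.7%, and 12.6% and 10.5%. Of 50 genes for ribosome assembly and rRNA processing 48 were tested: 29 were raised and 6 lowered in WT LPS, 34 and 1 in WT IFNg and 15 and 1 in WT IL4. In KO the counts were 29 and 8, 34 and 1, and 20 and 1. Examples in WT LPS were Sbds (2.58), a 60S maturation factor, Wdr43 (2.49) and Rrs1 (2.28). Rrs1 also rose with IL4, by 0.99 in WT and 0.68 in KO. Of 28 translation initiation factors 24 were raised and 2 lowered in WT LPS, among them the cap-binding protein Eif4e (1.89, and 2.12 in KO), and 7 and 5 in KO IL4. Of 76 mitochondrial ribosomal protein genes 27 were raised and 15 lowered in WT LPS, 18 and 2 in WT IL4 and 17 and 1 in KO IL4. In KO IL4 the cytosolic family and its mitochondrial counterpart thus had opposite splits of calls, a difference that was not tested.

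Of 20 translation factors whose mRNAs carry the TOP motif, 0 were raised and 4 lowered in KO IL4 (all genes 12.6% and 10.5%), with a list median of -0.05: Tpt1 (-1.06), the elongation factors Eef2 (-0.51) and Eef1a1 (-0.24), and Eif4b (-0.41). In WT IL4 2 were raised and 7 lowered (10.6% and 9.56%), with a median of -0.13, and in WT LPS 9 and 2 (25.5% and 27.8%). Of 14 genes of TOR and TOP control 5 were raised and 6 lowered in WT LPS, with Larp1, the binder of TOP mRNAs, at 2.96 and the translation inhibitor Pdcd4 at -5.38. Myc rose with IL4 by 2.63 in WT and 1.32 in KO, and had a KO minus WT difference of -1.59 in IL4 (SE 0.25, limma adjusted p = 7e-05), while its partner Max was higher by 0.39. Of the 8 ribosomal proteins with other symbols that were tested (such as Rpsa, Fau and Rpl22l1), 1 was raised in WT LPS, Rpl7l1 (0.28), 1 in WT IFNg, 2 in KO LPS and none in the 4 genotype comparisons, by the same test.

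Genes outside the family were ranked by how closely their log2 values followed its mean over the 24 libraries. Rows with Gm, Rik, pseudogene (-ps) or accession-like symbols were left out of this ranking. The first 5 were Timm44 (Pearson r = 0.82), Ilkap (0.79), Axin1 (0.79), Arfgap2 (0.78) and Cptp (0.77). Timm44 is part of the mitochondrial import motor and Axin1 a scaffold of the Wnt pathway. The libraries share groups and scaling, and the correlations carry no test.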

How the data were processed

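The table that the authors deposited held 1 value per gene and library for 24 libraries, a signal equal to a read count divided by a library factor. This was read from the values: with a tolerance of 0.05 reads, each of them was a whole number of reads. The factors equalled the median-of-ratios factors of these reads, each a median over genes of reads relative to the gene's geometric mean. Per the submitters' processing notes, TopHat2, Cufflinks 2.2.1 and Cuffdiff were used with build mm10 (GRCm38). The handling of reads that fit several gene copies is not given in the sources used here.

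Only genes that reached a value of 1 in 3 or more libraries entered the tests. Group means were estimated for log2 of the value plus 1 from all libraries together with limma 3.58.1 (R 4.3.3) with a mean-variance trend, and p-values were adjusted by Benjamini-Hochberg over 18637 genes. The added 1 pulls differences of low genes towards 0, but where a shallow library has no read of a gene that the others hold, the difference on this scale can exceed that of the count models. Alternatives were 5 other scalings, edgeR 4.0.16 and DESeq2 1.42.0 on the recovered reads, a pseudocount of 10, other filters, library weights, a replicate block and fits without 1 library each. Centring on the ribosomal protein genes and a correction for transcript GC (known for 99.1% of kept genes) were chosen after seeing the data. The fit was tested on simulated data for the control genotype comparison over 18637 genes: 90% of 100 genes changed by 1 on the log2 scale and 95% of 100 changed by 2 were recovered. The changed genes were drawn above a minimum level and the library factors were known. Smaller changes, such as many of those reported here, and errors of scaling were not simulated.

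Genes were named by a rule: per comparison, the 3 largest called rises and falls without overlap between the groups, preset genes (stalk proteins, Rpl5, Rpl11, Rpl13a, Rpl22, Rps3, Rps6, Rps19, Rps27a, and paralogs with their parents), the 3 highest and 3 lowest genes by level, up to 4 genes per other list, and the 5 genes most alike in pattern. The members and lists were chosen with earlier results of these data known. Positions are from GENCODE M21. The results of some genes that the rule names are not reported here.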

Additional observations from a re-analysis of the deposited data

How the results depend on the processing

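Counts of called genes below moved by more than 1.5 times from those of the deposited scaling, and the cause was not tested. Shares of all genes called are given above for total reads and median centring in LPS and IFNg. They are also given for the lowered IL4 interaction with edgeR and DESeq2. The other counts stand without that share, so a change in the family cannot be told from a change over all genes. Scaled by total reads, the counts were KO against WT in control 1 raised and 1 lowered, KO against WT in LPS 1 raised and 7 lowered, KO against WT in IFNg 2 raised, KO against WT in IL4 1 raised and 8 lowered, WT LPS 0 raised and 52 lowered, WT IFNg 0 raised and 49 lowered, KO LPS 1 raised and 60 lowered, KO IFNg 1 raised and 44 lowered. Scaled by TMM, the count was WT IFNg 1 raised. Scaled by the upper quartile, the counts were KO against WT in LPS 7 raised, KO against WT in IL4 2 raised and 2 lowered, WT LPS 6 raised, WT IFNg 0 raised and 18 lowered, KO LPS 11 raised, KO IFNg 12 lowered. Centred on the median gene, the counts were KO against WT in LPS 11 raised and 0 lowered, WT LPS 52 raised and 0 lowered, WT IFNg 26 raised and 0 lowered, WT IL4 1 lowered, KO LPS 56 raised and 1 lowered, KO IFNg 32 raised and 0 lowered. Centred on the ribosomal protein genes themselves, the counts were KO against WT in control 1 raised and 1 lowered, KO against WT in IFNg 1 raised, WT LPS 3 raised and 8 lowered, WT IFNg 1 raised, KO LPS 7 raised and 8 lowered, KO IL4 5 lowered. With the GC trend subtracted, the counts were KO against WT in control 4 raised and 1 lowered, KO against WT in LPS 13 raised and 0 lowered, KO against WT in IL4 1 raised and 2 lowered, WT IL4 2 raised and 4 lowered, KO LPS 28 raised, KO IFNg 7 raised, the LPS interaction 1 raised, the IL4 interaction 1 lowered. Without a filter, the counts were KO against WT in LPS 0 lowered, KO against WT in IL4 2 raised, WT IFNg 1 raised. With library weights, the counts were KO against WT in control 7 raised and 1 lowered, KO against WT in IFNg 20 raised, KO against WT in IL4 17 lowered, WT LPS 3 lowered, WT IFNg 6 raised and 23 lowered, WT IL4 6 raised and 6 lowered, KO IFNg 9 raised and 13 lowered, KO IL4 38 lowered, the LPS interaction 1 raised and 2 lowered, the IFNg interaction 3 raised, the IL4 interaction 1 raised and 21 lowered. With a replicate block, the counts were KO against WT in IL4 2 raised, WT IFNg 1 raised. Fitted on the compared groups alone, the counts were KO against WT in LPS 2 raised and 0 lowered, KO against WT in IFNg 5 raised, KO against WT in IL4 2 raised and 3 lowered, WT IL4 3 raised and 4 lowered, KO LPS 2 lowered, KO IL4 1 raised, the IL4 interaction 1 lowered. With edgeR, the counts were KO against WT in control 1 lowered, KO against WT in IFNg 15 raised, KO against WT in IL4 10 lowered, WT IFNg 5 raised and 16 lowered, WT IL4 2 raised and 4 lowered, KO IFNg 8 raised, the LPS interaction 2 lowered, the IL4 interaction 12 lowered. With DESeq2, the counts were KO against WT in control 1 lowered, KO against WT in IL4 7 lowered, WT IL4 2 raised and 4 lowered, KO IFNg 7 raised, the LPS interaction 1 lowered, the IL4 interaction 7 lowered. Without 1 library of the groups compared, in turn, the counts ranged over KO against WT in control 1 to 3 raised and 0 to 1 lowered, KO against WT in LPS 3 to 7 raised and 0 to 7 lowered, KO against WT in IFNg 3 to 8 raised and 0 lowered, KO against WT in IL4 1 to 3 raised and 1 to 11 lowered, WT LPS 12 to 16 raised and 2 to 3 lowered, WT IFNg 1 to 2 raised and 7 to 13 lowered, WT IL4 1 raised and 1 to 3 lowered, KO LPS 14 to 24 raised and 2 to 8 lowered, KO IFNg 3 to 7 raised and 2 to 9 lowered, KO IL4 1 to 3 raised and 10 to 22 lowered, the LPS interaction 0 to 1 raised and 0 to 2 lowered, the IFNg interaction 0 raised and 0 lowered, the IL4 interaction 0 raised and 0 to 6 lowered. Genes that changed sign were, centred on the median gene, Rpl22 in WT LPS (0.29), KO LPS (0.28), WT IFNg (0.0047) and KO IFNg (0.17), Rpl13a in KO IFNg (0.10) and Rpl3 in WT LPS (0.041). Scaled by total reads they were Rplp0 in WT and KO LPS (-0.54 and -0.59), Rps3 in WT and KO LPS (-0.62 and -0.76), Rps24 in WT and KO IFNg (-0.22 and -0.12), Rpl27 (-0.025), Rpl9 (-0.21) and Rps27l (-0.42) in WT LPS, and Rpl39 (-0.27) and Rps27a (-0.40) in KO LPS. Centred on the ribosomal protein genes, Rps3 had -0.069 in WT LPS and -0.045 in KO LPS. A pseudocount of 10, a minimum value of 10 and scaling factors computed without these genes moved none of the counts past that limit. Those factors hardly differ from the deposited ones. No paired design is stated. Correlations of the deviations of same-numbered libraries ranged from -0.34 to 0.41, and no comparison had all of its pairs above 0.1. For KO against WT in IFNg they were 0.263, 0.263 and 0.062. With 3 libraries per group these values cannot decide whether libraries were paired. The replicate block moved no other count past 1.5 times. Depth limits the genes below about 10 reads in a library, 28 of the 79, and KO LPS replicate 1, where 3 reads are a value of 70.9.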
